A study of Mus musculus with 12 samples.

Results

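The cytosolic ribosomal protein genes of mouse cortical neurons were followed gene by gene through a scratch injury and a treatment with transforming growth factor β1 (TGF-β1). Members were the protein-coding genes of the deposited expression table whose symbol begins with Rpl or Rps followed by a digit or a p, leaving out the Rps6k kinases and names that contain "-ps". This rule found 85 of the 55901 genes, 52 named for the large subunit of the ribosome and 33 for the small subunit. It took in Rps19bp1, which encodes a protein that binds Rps19 and is not a subunit, and paralogues such as Rpl22l1, Rps27l, Rps27rt and Rpl7l1. It did not take in genes such as Rpsa, Fau and Rack1, which encode ribosomal proteins under other names.

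Neurons were isolated from the cortex of C57BL/6J mice within a day of birth and grown in culture, with arabinosylcytosine added to all groups to limit dividing glia. Poly(A) RNA was sequenced in 12 libraries, 4 for each group. Control cultures were left intact. Trauma cultures were scratched with a needle and harvested after 24 h. Trauma+TGF-β1 cultures (labelled Tra_TGF) were scratched in the same way and given TGF-β1 at 10 ng/mL over the 24 h. No group received TGF-β1 without the injury, so the comparisons show the treatment in scratched cultures only. Neither the labels nor the methods say whether libraries of a group came from separate cultures or litters, so the p-values given here measure the spread between these libraries, which may be technical.

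The cytosolic ribosome joins a large subunit, which forms peptide bonds, to a small subunit, which holds and decodes the mRNA, and each subunit carries most of its proteins in a single copy. In mammals the mRNAs of nearly all of these proteins begin with a C followed by a run of pyrimidines at the 5′ end (the 5′ TOP motif), through which the kinase mTOR and the RNA-binding protein LARP1 control their translation and storage. Neurons hold ribosomes in cell bodies, dendrites and axons, and ribosomal protein mRNAs are among the mRNAs most often found in neuronal processes.

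The start sites of 65 members had an entry in the RefSeq promoter table for GRCm38.p6, and the 30 bases from 10 before each start were searched on the gene's own strand for a C followed by at least 5 bases that were each C or T, beginning within 10 bases of the start. Such a run was present in 35 of the 65 genes (53.8%), against 21.1% of the 27025 genes in the table. It was present in 20 of 40 large subunit genes and 15 of 25 small subunit genes. The sequences below belong to some of the members that the results turn on, with the run in capitals, and do not show how common it was. The last pair had no run by this rule, which says only that none began within 10 bases of this start. In the Rpl11 window a C followed by 5 pyrimidines stands farther from the start, at the window's end. Rpl23, Rpl5, Rps3, Rps15 and Rps28 also had an entry and no run by this rule, and their sequences are not printed.
Rpl35, chr2:39005112-39005141, minus strand: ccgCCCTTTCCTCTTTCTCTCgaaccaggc
Rplp2, chr7:141447641-141447670, plus strand: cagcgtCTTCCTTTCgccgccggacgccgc
Rpl28, chr7:4792955-4792984, plus strand: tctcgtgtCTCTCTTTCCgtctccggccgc
Rpl22l1, chr3:28805498-28805527, plus strand: gcgcaagcccgttCTCTTCCCacggctgca
Rps18, chr17:33955646-33955675, minus strand: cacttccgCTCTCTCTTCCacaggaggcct
Rps9, chr7:3704031-3704060, plus strand: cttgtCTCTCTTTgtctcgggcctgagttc
Rpl11, chr4:136053374-136053403, minus strand: ccataaggccacggggccggaagtctccct
Rps16, chr7:28350679-28350708, plus strand: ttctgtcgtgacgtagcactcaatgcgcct

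Each library had 15052486 to 17381671 reads on genes, and the 81 members that were tested had from 17 to 10727 reads in a library, with a typical member at 2369. Markers of neurons were high in all libraries, and their summed level over 8 genes was 1356 to 1423 FPKM (read fragments scaled by gene length and library depth) in Control. It was 1214 to 1292 FPKM in Trauma, and with TGF-β1 it was 1145 to 1185 FPKM. Most of this sum was the tubulin gene Tubb3, which fell from a mean of 842 FPKM in Trauma to 739 with TGF-β1. The other markers did not move one way, since the microtubule protein gene Map2 went from 103 to 119 FPKM and the RNA-binding protein gene Rbfox3 from 50.4 to 43.7. Of the 8 neuron markers 4 were higher and 4 lower with TGF-β1 than in Trauma, with a median log2 fold change of 0.04. The summed level of 6 astrocyte markers was 128 to 139, 171 to 213 and 195 to 214 FPKM in the same order, and that of 6 microglial markers 14.7 to 18.1, 22.3 to 30.3 and 18.9 to 21.9. Of the defining microglial markers, Tmem119 and P2ry12 stayed below 0.5 FPKM in each library. The 5 fibroblast and vessel markers summed to between 0.926 and 2.61 FPKM, and Cldn5 was listed at 0 in some libraries of each group. In the oligodendrocyte list Pdgfra and Sox10 stayed below 0.5 FPKM, and the 6 genes summed to 21.8 to 27.3 FPKM. Reads on mitochondrial genes were 2.12% to 2.97% of each Control library, 2.17% to 2.30% of each Trauma library and, with TGF-β1, 2.69% to 3.23%. In bulk RNA, fewer cells of a type and less RNA per cell cannot be told apart.

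Levels differed widely between members. On the FPKM scale, 14 large and 14 small subunit genes had a mean of at least 100 FPKM over the 12 libraries, 32 and 18 lay between 10 and 100, and 2 and 1 between 0.5 and 10. The highest was Rplp1, a protein of the stalk that recruits elongation factors, at a mean of 845 FPKM. It was followed among large subunit genes by Rplp0, the base of the same stalk, at 348, and by Rpl41, the smallest ribosomal protein, at 274 FPKM. In the small subunit the highest were Rps15 at 284, Rps3a1 at 268 and Rps2 at 264 FPKM, and the ranges of these over the 12 libraries overlapped. FPKM depends on the length that the authors assigned to each gene. Members were 374 to 6270 bases long with a median of 1734 (3869 for all genes tested), and across the 85 members the level fell with length (Spearman rho = −0.37, a description over genes).

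Reads were divided between many members and their copies elsewhere in the genome. Of the 85 members, 76 shared at least one 100-base sequence with another annotated gene, mostly a processed pseudogene, and for a typical member 22.2% of all its 100-base sequences were shared. Rps10, a small subunit protein of the mRNA entry region, was listed at 1.46 FPKM on 17 to 79 reads, while its processed pseudogene Rps10-ps2 was listed at 113.7 FPKM on 648 to 1095 reads. Rpl21, a large subunit protein, was listed at 10.9 FPKM and its pseudogene Rpl21-ps15 at 62.8 FPKM. Reads on 450 pseudogenes that shared sequence with 73 of the members came to 9.48% to 11.1% of the members' own reads per library. Levels of single members with many copies are therefore uncertain, and fits with those reads added are given beside the results they change.

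Together the members took a slightly smaller part of the reads after TGF-β1. The large subunit genes took 0.802, 0.806, 0.791 and 0.751% of the reads on genes in the 4 Control libraries, 0.830, 0.888, 0.810 and 0.867% in Trauma and 0.759, 0.709, 0.749 and 0.718% in Trauma+TGF-β1. The small subunit genes took 0.540, 0.532, 0.512 and 0.485%, 0.534, 0.580, 0.520 and 0.555% and 0.4998, 0.465, 0.483 and 0.473% in the same order. For either subunit each treated library lay below each Trauma library. For the large subunit each Trauma library also lay above each Control library, and Control overlapped Trauma+TGF-β1. For the small subunit Control overlapped both of the other groups. The summed FPKM of the large subunit was 1.54 to 1.69 times that of the small subunit in Control, 1.65 to 1.68 times in Trauma and, with TGF-β1, 1.53 to 1.63 times. The plot of read shares shows these values.

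**Figure D1:**
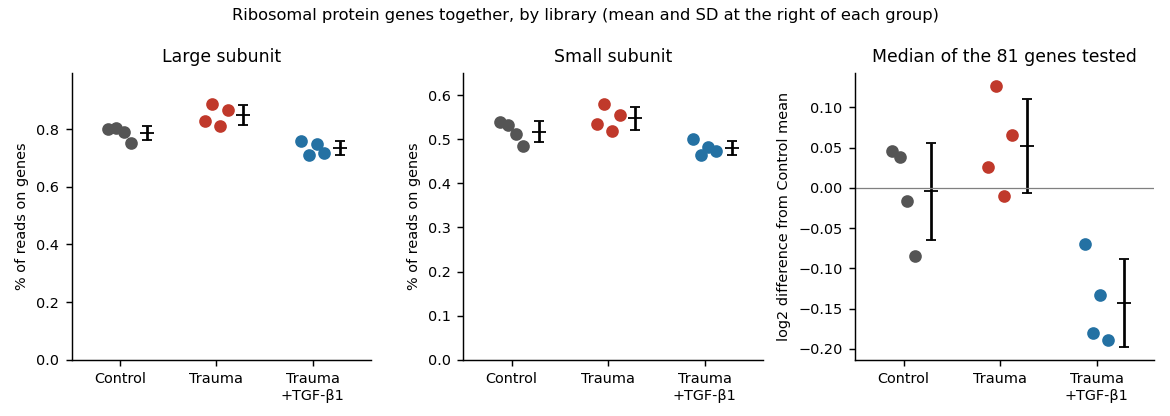
Share of reads on genes taken by large (left) and small (middle) subunit genes in % and, at right, the median log2 difference of the 81 tested members from the Control mean, with a point for each library and the mean ± SD (n = 4) of each group. The 4 Trauma+TGF-β1 points lie below the 4 Trauma points in each panel, and their median differences run from −0.19 to −0.07 on the log2 scale.

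The comparison of Trauma with Control asked what the scratch alone did to these mRNAs after 24 h. In a limma fit of log2(FPKM + 0.1) over the 14993 genes with a mean of at least 0.5 FPKM, with Benjamini-Hochberg adjusted p at most 0.05, 1 of the 81 members tested rose (3.3% of all genes did) and 0 fell (2.7% of all genes). At an unadjusted p of at most 0.05, 10 members were higher and 1 lower, but all genes were not counted at that cut. Voom on the recovered reads called 6 members higher and 0 lower, beside 623 higher and 530 lower of all 14993 genes. The median log2 fold change was 0.06 over the members, 0.06 for the large and 0.03 for the small subunit, beside −0.01 over all genes tested. The values were above 0 for 62 members and below 0 for 19, and the median stayed between 0.03 and 0.09 in all alternatives tried, with each library left out included.

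Rpl23 (ENSMUSG00000071415, chr11:97777527-97782437, minus strand), whose protein sits at the face that meets the small subunit and binds the anti-association factor eIF6, was the member that rose. It was at 62.3, 71.3, 67.8 and 63.8 FPKM in Control, 74.1, 77.4, 72.8 and 74.2 in Trauma and 58.3, 55.3, 55.3 and 55.8 in Trauma+TGF-β1. Each Trauma library was above each Control library and each Trauma+TGF-β1 library below all others. The change from Control to Trauma was a log2 fold change of 0.17 (SE 0.04, adjusted p = 0.036). Over the alternatives its adjusted p ran from 0.0024 to 0.11, and it passed in 17 of 29. It did not pass without Control library 1, 3 or 4 or without any of the Trauma libraries. Rpl36, a large subunit protein, lay just outside the threshold, with 224, 246, 254 and 232 FPKM in Control and 273, 302, 250.5 and 292 in Trauma, and a log2 fold change of 0.22 (SE 0.06, adjusted p = 0.052). These libraries overlapped. Over the alternatives its adjusted p ran from 0.0043 to 0.19, and it passed in 9 of 29, among them voom, quantile normalization, the GC correction and the fit without Trauma library 3. The largest values among small subunit genes were 0.42 (adjusted p = 0.068) for Rps28, 0.33 (adjusted p = 0.089) for Rps29 and 0.24 (adjusted p = 0.10) for Rps18 on the log2 scale, and none of these passed the test. With pseudogene reads added they were 0.23 (adjusted p = 0.23), 0.33 (adjusted p = 0.14) and 0.23 (adjusted p = 0.11) in the same order. Rps15 and Rpl41 also had all Trauma libraries above all Control libraries, so that 3 members did, against 6.26% of all genes tested, and 0 members lay the other way, against 6.7% of all genes.

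The comparison of Trauma+TGF-β1 with Trauma asked what TGF-β1 did to the same mRNAs in scratched neurons. Members were lower or unresolved and none passed the test upward. Of the 81 tested, 34 fell in limma (42.0%), where 7.72% of all genes tested fell, and 0 rose, where 4.41% of all genes rose. At an unadjusted p of at most 0.05, a cut at which all genes were not counted, 43 members were lower and 1 (Rpl17) higher. The value of Rpl17 turned below 0 when pseudogene reads were added, as given below. Voom called 38 members lower and 0 higher, beside 1460 lower and 1094 higher of all 14993 genes. The changes that passed ran from −0.91 to −0.12 on the log2 scale with a median of −0.41, or −46.9% to −7.97% relative to Trauma. Over all 81 members the median log2 fold change was −0.20, beside 0.00 over all genes. The large subunit had 23 of 48 members lower and the small subunit 11 of 33, with medians of −0.20 in each. The 4 treated libraries were all lower than the 4 Trauma libraries for 35 members (12.0% of all genes tested), of which 29 were among the 34 that passed, and all higher for 0 members (10.2% of all genes).

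**Figure D2:**
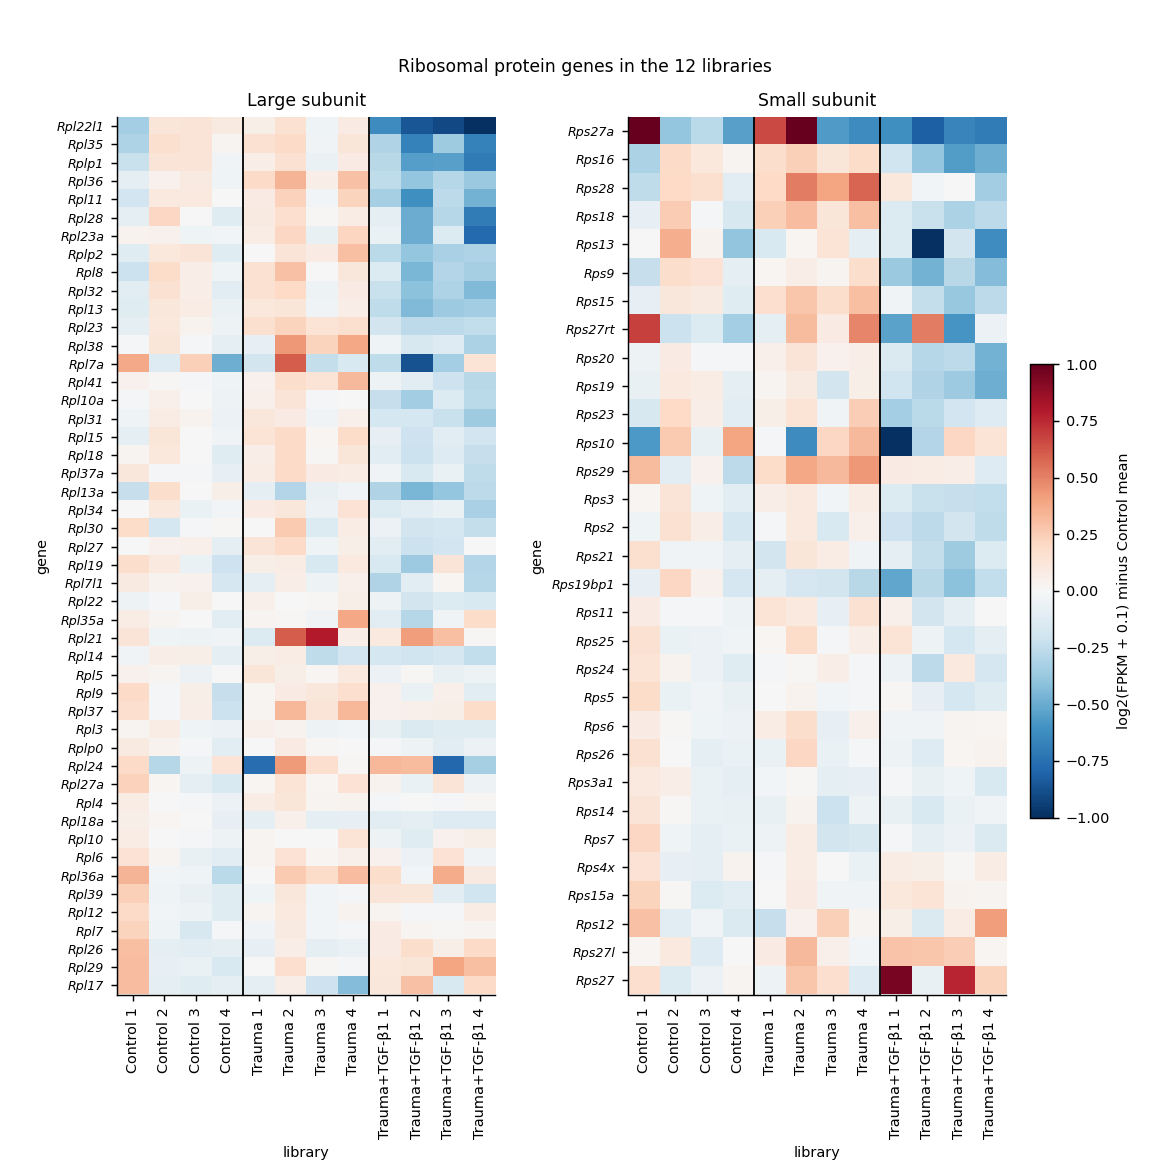
Log2(FPKM + 0.1) of tested large (left) and most tested small (right) subunit genes in the 12 libraries, minus each gene's Control mean, with genes ordered by the change from Trauma to Trauma+TGF-β1 and colours ending at −1 and 1. The 4 Trauma+TGF-β1 columns are blue for most of the upper genes of each panel, while Rps27a, Rps27rt, Rps10 and Rpl7a vary between libraries of a group.

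The stalk of the large subunit, which binds the translation factors that use GTP, did not move as a unit. Rplp1 (ENSMUSG00000007892, chr9:61913284-61914542, minus strand) was at 789, 1010.4, 1009.7 and 899 FPKM in Control, 966, 1025, 881 and 976 in Trauma and 763, 628, 631 and 565 in Trauma+TGF-β1. Each treated library was below each of the other 8, and the change from Trauma was a log2 fold change of −0.58 (SE 0.10, adjusted p = 0.0073). Its partner in the stalk dimers, Rplp2, was at 57.3, 67.0, 68.2 and 57.3 FPKM in Control, 62.3, 67.9, 66.1 and 76.6 in Trauma and 51.7, 47.6, 49.6 and 50.3 in Trauma+TGF-β1, again without overlap, with a log2 fold change of −0.45 (SE 0.07, adjusted p = 0.0062). Rplp0, which anchors the dimers to ribosomal RNA, was at 374, 358, 346 and 325 FPKM in Control, 351, 371, 353 and 351 in Trauma and 345, 338, 324 and 337 in Trauma+TGF-β1. The Rplp0 values of treated libraries lay below those of Trauma by a small margin that did not pass the test, with a log2 fold change of −0.08 (SE 0.04, adjusted p = 0.21). Reads from Rplp1 could be shared with 3 other genes over 30.0% of its 100-base sequences.

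Of the pair that carries 5S ribosomal RNA into the large subunit and binds the p53 regulator Mdm2 when free, both members passed but by unlike amounts. Rpl11 (ENSMUSG00000059291, chr4:136028265-136053428, minus strand) was at 49.5, 60.5, 60.5 and 56.7 FPKM in Control, 60.0, 66.6, 55.6 and 66.0 in Trauma and 45.0, 37.1, 47.2 and 40.8 in Trauma+TGF-β1. No treated library reached the Control or Trauma range, and the change from Trauma was a log2 fold change of −0.55 (SE 0.09, adjusted p = 0.0062). Rpl5 was at 54.8, 54.2, 51.0 and 53.1 FPKM in Control, 58.0, 55.6, 54.0 and 56.9 in Trauma and 51.0, 53.7, 50.5 and 51.4 in Trauma+TGF-β1, with a log2 fold change of −0.12 (SE 0.04, adjusted p = 0.045). Rpl5 was the member nearest to the threshold from inside, and Rps2, with a log2 fold change of −0.22 (SE 0.07, adjusted p = 0.057), the nearest from outside. The call of Rpl5 was lost in 15 of 29 alternatives, among them the correction for gene length and the addition of pseudogene reads.

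Around the exit of the tunnel through which the new peptide leaves the ribosome, members split. Rpl35 (ENSMUSG00000062997, chr2:39001580-39005624, minus strand), a protein at the tunnel exit, was at 59.3, 82.1, 80.5 and 74.8 FPKM in Control, 81.7, 83.9, 71.7 and 80.1 in Trauma and 59.8, 46.0, 57.6 and 46.1 in Trauma+TGF-β1. The treated libraries were below all Trauma libraries, and 1 of them lay within the Control range through the low Control library 1. The change from Trauma was a log2 fold change of −0.61 (SE 0.11, adjusted p = 0.0098). Rpl23a, the neighbour of Rpl35 and part of the docking site for the signal recognition particle, changed by −0.48 (adjusted p = 0.034) on the log2 scale, and Rpl31 by −0.29 (adjusted p = 0.0081). The treated and Trauma libraries overlapped for Rpl23a, and its call held in 17 of 29 alternatives. With pseudogene reads added Rpl23a was at −0.33 (adjusted p = 0.029). Rpl17, Rpl26, Rpl39 and Rpl19, also at the exit, did not pass, at 0.28, 0.17, −0.02 and −0.19. With the reads of pseudogenes that share its sequence added, Rpl17 was at −0.13 (adjusted p = 0.19). Among proteins that reach toward the peptide-bond centre, Rpl8 fell by 0.45 on the log2 scale (adjusted p = 0.013), whereas Rpl3, Rpl4 and Rpl10 were at −0.12 (adjusted p = 0.063), −0.07 (adjusted p = 0.23) and −0.06 (adjusted p = 0.46).

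Rpl22l1 (ENSMUSG00000039221, chr3:28805436-28807424, plus strand), an RNA-binding paralogue of Rpl22, had the largest change of all members that passed. It was at 10.9, 15.05, 15.1 and 14.7 FPKM in Control, 14.4, 15.4, 13.4 and 14.6 in Trauma and 8.88, 7.60, 7.33 and 6.75 in Trauma+TGF-β1. The 4 treated libraries were the lowest of the 12, and the change from Trauma was a log2 fold change of −0.91 (SE 0.11, adjusted p = 0.0018), with 215 to 269 reads per treated library against 470 to 533. Rpl22 itself was at 52.2, 53.6, 56.3 and 54.4 FPKM in Control, 55.9, 54.3, 54.6 and 56.4 in Trauma and 52.2, 47.6, 49.3 and 48.5 in Trauma+TGF-β1, with a log2 fold change of −0.16 (SE 0.04, adjusted p = 0.018). The log2 ratio of Rpl22l1 to Rpl22 was −1.93 ± 0.0855 in Trauma and, with TGF-β1, −2.68 ± 0.123 (SD, n = 4). The difference was −0.75 by an exact permutation test on both sides (p = 0.0286, which is as small as 4 against 4 libraries can give, and 0.13 after adjustment over the 9 ratio tests). An antisense gene overlaps Rpl22l1, and the stated library protocol does not mark strand.

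The remaining large subunit genes that passed were, from larger to smaller change, Rpl36, Rpl28, Rpl32, Rpl13, Rpl23, Rpl38, Rpl41, Rpl10a, Rpl15, Rpl18, Rpl37a, Rpl34 and Rpl27. Rpl36 was at 199.9, 183, 196 and 185 FPKM in Trauma+TGF-β1, below all of its Control and Trauma values given above, with a log2 fold change of −0.55 (SE 0.06, adjusted p = 0.0016). Rpl41 was at 281, 274, 269.9 and 265 FPKM in Control, 281, 307, 299 and 341 in Trauma and 263, 252, 235 and 225 in Trauma+TGF-β1, with a log2 fold change of −0.33 (SE 0.06, adjusted p = 0.0094). Both are short genes, at 383 and 1168 bases. Rpl38, known for its part in the translation of Hox mRNAs, changed by −0.40 (adjusted p = 0.025) with overlapping groups.

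In the small subunit, several members of the head, the part that contacts tRNA and swivels during translation, were among those that fell. Rps16 (ENSMUSG00000037563, chr7:28350652-28353155, plus strand), whose tail reaches the tRNA in the peptidyl site, was at 91.4, 130.3, 123 and 116 FPKM in Control, 129, 135, 124 and 129 in Trauma and 99.2, 87.4, 77.4 and 81.4 in Trauma+TGF-β1. The treated libraries were below all Trauma libraries and the highest of them was above Control library 1, with a log2 fold change of −0.59 (SE 0.10, adjusted p = 0.0079) against Trauma. Rps15 (ENSMUSG00000063457, chr10:80292453-80294114, plus strand), also of the head, was at 266, 304, 299.6 and 258 FPKM in Control, 316, 342, 318 and 346 in Trauma and 274, 238, 216 and 235 in Trauma+TGF-β1, with a log2 fold change of −0.46 (SE 0.07, adjusted p = 0.0062). Its treated and Trauma libraries did not overlap, and its call was lost with a correction for GC content, which is 62.4% in this gene. Rps18, a head protein near the bridge to the large subunit, was at 61.5, 78.0, 64.5 and 58.4 FPKM in Control, 76.9, 80.8, 71.0 and 80.2 in Trauma and 59.1, 55.8, 52.5 and 54.5 in Trauma+TGF-β1, with a log2 fold change of −0.48 (SE 0.08, adjusted p = 0.0067). Rps28, at the exit of the mRNA, was at 16.0, 22.0, 21.3 and 17.7 FPKM in Control, 22.0, 27.2, 25.1 and 28.6 in Trauma and 20.5, 18.7, 19.0 and 14.9 in Trauma+TGF-β1, with a log2 fold change of −0.49 (SE 0.12, adjusted p = 0.025). For Rps28 the treated libraries lay below Trauma and overlapped Control. Rps20 and Rps19, which also build the head, changed by −0.36 (adjusted p = 0.0064) and −0.34 (adjusted p = 0.018).

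The entry channel of the mRNA is lined by Rps3, Rps9 and Rps2. Rps9 (ENSMUSG00000006333, chr7:3703993-3706897, plus strand) was at 86.1, 114, 112 and 95.3 FPKM in Control, 103, 106, 103 and 114 in Trauma and 78.1, 72.9, 83.3 and 74.8 in Trauma+TGF-β1. The 4 treated libraries were below the other 8, with a log2 fold change of −0.46 (SE 0.08, adjusted p = 0.0085). Rps3 changed by −0.26 (adjusted p = 0.0099), and Rps2 stayed outside the threshold as given above. Rps23, at the decoding centre, changed by −0.33 (adjusted p = 0.024). Rps6, the substrate of S6 kinases in the mTOR pathway, was at 125, 119, 115 and 113 FPKM in Control, 124, 133, 111 and 123 in Trauma and 115, 115, 120.4 and 119.7 in Trauma+TGF-β1, with a log2 fold change of −0.06 (SE 0.05, adjusted p = 0.48), and its groups overlapped.

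The other 47 tested members did not pass in this comparison. Their log2 fold changes ran from −0.84 to 0.40 with a median of −0.08, 37 below and 10 above 0. The values above 0 included 0.40 for Rps27 (adjusted p = 0.18), 0.28 for Rpl17 (adjusted p = 0.17), 0.19 for Rpl29 (adjusted p = 0.23) and 0.17 for Rpl26 (adjusted p = 0.19). That of Rpl17 was below 0 with pseudogene reads added. Rpl4, with little spread, was at 237, 225, 222 and 216 FPKM in Control, 236, 245, 229 and 229.9 in Trauma and 223, 225, 223 and 227 in Trauma+TGF-β1, and its log2 fold change was −0.07 (adjusted p = 0.23), although the treated libraries were all below Trauma. Rps3a1, among the highest small subunit genes, was at 294, 288, 263 and 257 FPKM in Control, 269, 278, 257 and 259.9 in Trauma and 273, 261, 266 and 248 in Trauma+TGF-β1, and its groups overlapped. The pooled SD within groups was 0.10 on the log2 scale at the median of the 34 members that passed and 0.12 at that of the 47 (maxima of 0.21 and 0.69).

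**Figure D3:**
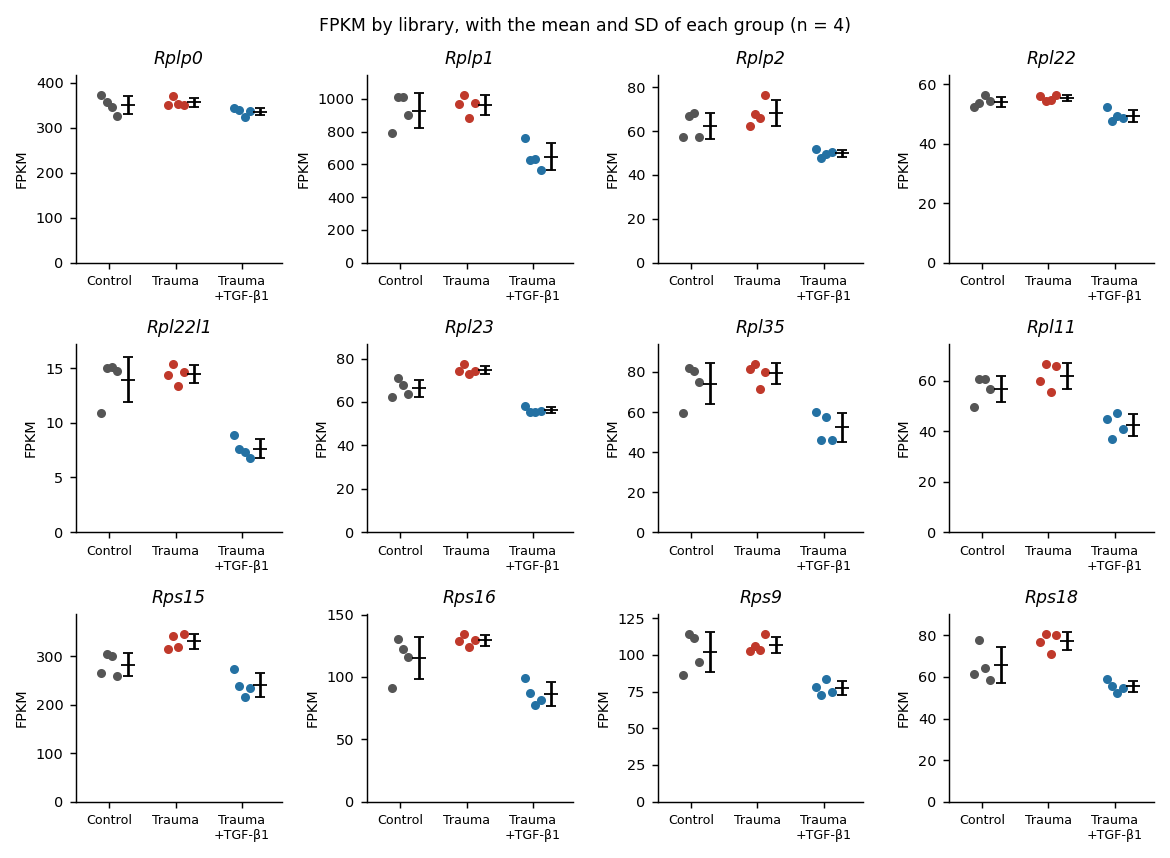
FPKM of 12 members in each library (points), with the mean ± SD of each group (n = 4) at its right, on linear axes that start at 0. Rplp1, Rpl22l1, Rpl23 and Rps9 have all Trauma+TGF-β1 points below all others, while Rplp0 lies between 324 and 374 FPKM in all 12 libraries.

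Gene length did not separate the members that fell from those that did not. Of the 41 tested members at or below the median length of 1770 bases, 18 fell, and of the 40 longer ones 16 fell, with median log2 fold changes of −0.20 and −0.22. Across the 81 members the fold change and the length were related by Spearman rho = 0.10 (0.23 over the 48 large and −0.05 over the 33 small subunit genes), and across all 14993 genes by 0.22. Among 2502 other tested genes in the shorter range of tested members, from 374 to 1770 bases, 11.2% fell and the median was −0.08. For GC content rho was −0.14 over the members and −0.47 over the 14677 genes with a known value. Of the members at or below the median GC content 14 of 41 fell, and of those above it 20 of 40. Splits by level (16 of 41 and 18 of 40) and by the part of the sequence shared with other genes (19 of 41 and 15 of 40) gave like counts. Of the tested members with a pyrimidine run at the start, 14 of 34 fell with a median of −0.23, and of those without, 12 of 27 with a median of −0.16. These are descriptions over genes, which are not independent replicates.

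**Figure D4:**
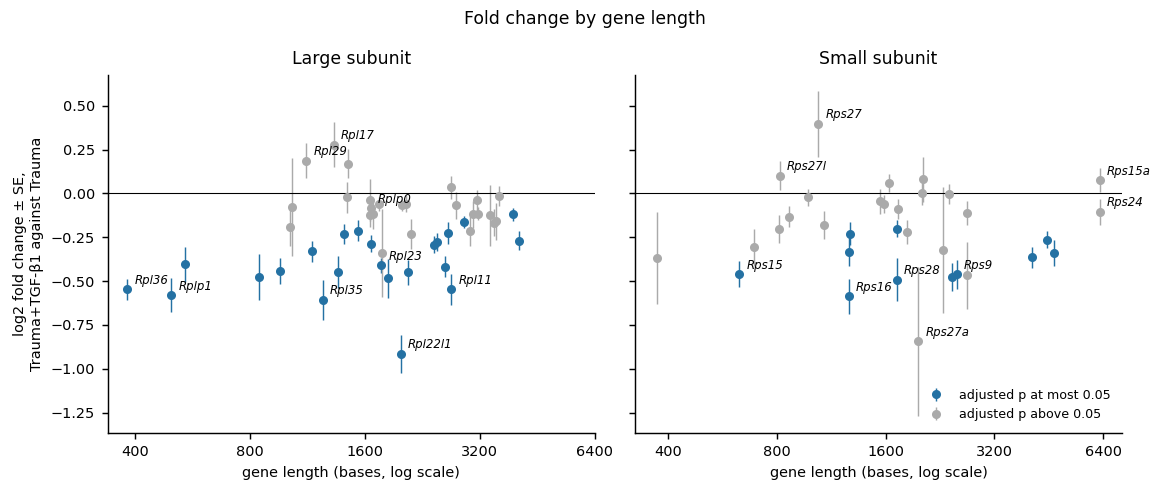
Log2 fold change ± SE of each tested large (left) and small (right) subunit gene from Trauma to Trauma+TGF-β1, against gene length in bases on a log axis. Genes past the threshold (blue) occur from 383 bases (Rpl36) to 4685 bases (Rps19), and the widest error bar belongs to Rps27a.

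How the libraries were scaled changed the size of this result. With a loess correction of each library for gene length, 24 members fell (800 of all 14993 genes did) and the median of the members was −0.11. With a correction for GC content 28 members fell (601 of 14677 genes did) and the median was −0.15. With quantile normalization 24 members fell and 1 rose, with a median of −0.12. Quantile normalization also turned the balance of all genes, from 1157 lower and 661 higher to 927 lower and 1125 higher. The count of members dropped to 22 without Trauma library 2 (544 of 15010 genes fell) and to 22 without Trauma+TGF-β1 library 2 (490 of 14999 genes fell). In each of these alternatives fewer of all genes fell than the 1157 of the main fit. Of the 34 members, 17 passed in all 29 alternatives, namely Rpl10a, Rpl11, Rpl13, Rpl15, Rpl18, Rpl22l1, Rpl23, Rpl31, Rpl32, Rpl35, Rpl36, Rplp2, Rps16, Rps18, Rps20, Rps3 and Rps9, and none of the 34 changed sign in any. The share of mitochondrial reads was higher, and the level of Tubb3 and the microglial marker sum lower, in Trauma+TGF-β1 than in Trauma libraries without overlap. Of the 8 neuron markers 2 fell and 1 rose, and of the 3 microglial markers tested 0 passed. The part of these in the members' differences was not tested.

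Against Control, the comparison that joins injury and treatment, 24 of the 81 members fell in limma (10.4% of all genes tested fell) and 0 rose (6.16% of all genes rose). At an unadjusted p of at most 0.05, again not counted over all genes, 39 members were lower and 3 higher. Voom called 34 members lower and 2 higher, beside 1733 lower and 1185 higher of all 14993 genes. The large subunit had 16 of 48 lower and the small subunit, with Rps19bp1 counted in it, 8 of 33. The median over the members was −0.16, beside −0.01 over all genes. Without the paralogues and Rps19bp1, 22 of 76 members fell. For 25 members the 4 treated libraries lay below the 4 Control libraries (10.6% of all genes tested), and for 0 above them (7.95%). This comparison shares its treated libraries with the former, so the pair do not count as separate evidence. Of the 34 members that fell against Trauma, 21 also fell against Control, and these were 21 of the 24. The values of the members with the largest changes were −0.85 (adjusted p = 0.00050) for Rpl22l1, −0.52 (adjusted p = 0.0047) for Rplp1, −0.50 (adjusted p = 0.011) for Rpl35, −0.42 (adjusted p = 0.0081) for Rpl11 and −0.40 (adjusted p = 0.030) for Rpl28 in the large subunit. The call of Rpl28 was lost in 11 of 29 alternatives, with an adjusted p of up to 0.089, and its treated libraries overlapped Control. Among members named for the small subunit the values were −0.41 (adjusted p = 0.018) for Rps16, −0.39 (adjusted p = 0.0084) for Rps9 and −0.36 (adjusted p = 0.011) for Rps19bp1, which is not a subunit. Next were −0.34 (adjusted p = 0.010) for Rps19 and −0.29 (adjusted p = 0.0070) for Rps20.

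The 3 members that passed against Control and not against Trauma were Rpl13a, Rps2 and Rps19bp1. Rps19bp1, which also binds the deacetylase Sirt1, was at 22.4, 27.4, 24.4 and 21.1 FPKM in Control, 22.1, 21.1, 20.9 and 19.5 in Trauma and 16.5, 19.6, 17.8 and 20.0 in Trauma+TGF-β1. Its treated libraries were below all Control libraries and overlapped Trauma at their upper end. Rpl13a, known for its part in the interferon-γ response, was at 7.47, 9.90, 8.72 and 9.15 FPKM in Control, 8.25, 7.13, 8.32 and 8.54 in Trauma and 7.08, 6.37, 6.66 and 7.30 in Trauma+TGF-β1, with a log2 fold change of −0.35 (SE 0.09, adjusted p = 0.017). The 13 that passed against Trauma and not against Control included Rpl5, Rpl15, Rpl23a, Rpl27, Rpl34, Rpl37a, Rpl38, Rpl41, Rps15, Rps18, Rps23 and Rps28. Among these, Rps28 was at 19.2 ± 2.89, 25.7 ± 2.90 and 18.3 ± 2.38 FPKM (mean ± SD, n = 4) in Control, Trauma and Trauma+TGF-β1. Rpl18, at −0.17 (adjusted p = 0.046), and Rps15, at −0.23 (adjusted p = 0.054), were nearest to the threshold on either side, and Rps15 was at 0.03 after the correction for GC content. With quantile normalization 13 members fell and 3 rose, and the median was −0.03, while the balance of all genes turned from 1565 lower and 923 higher to 918 lower and 1134 higher.

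**Figure D5:**
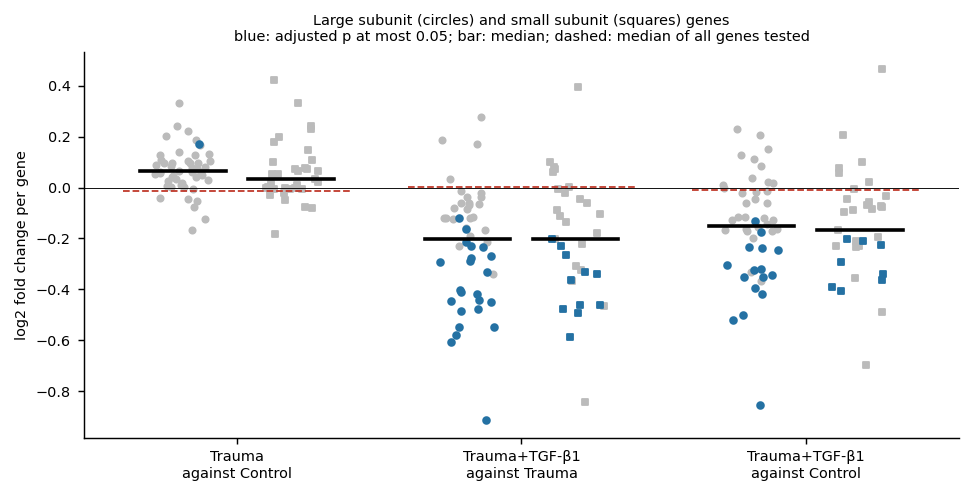
Log2 fold change of each tested large (circles) and small (squares) subunit gene in the 3 comparisons, in blue where the adjusted p is at most 0.05, with the median of each subunit as a bar and that of all genes tested as a dashed line. The medians of the large and small subunit are 0.06 and 0.03 in Trauma against Control, −0.20 and −0.20 in Trauma+TGF-β1 against Trauma, and −0.15 and −0.17 against Control.

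Most paralogues of single subunit proteins were low beside their partners. Rpl36al, Rpl3l, Rpl39l and Rpl10l had means under 0.5 FPKM and were not tested. Rpl36al, the paralogue of Rpl36a, had 6 to 13 reads in each library, and Rpl3l, which replaces Rpl3 in striated muscle, 1 to 13. The testis paralogue Rpl39l had at most 2 reads, and Rpl10l, also of testis, was listed at 0 in all 12 libraries. Rpl7l1, a relative of Rpl7 that acts in ribosome assembly, was at 15.4, 14.8, 14.9 and 12.9 FPKM in Control, 13.6, 15.2, 13.999 and 15.01 in Trauma and 11.7, 13.3, 14.7 and 11.9 in Trauma+TGF-β1, with a log2 fold change of −0.17 (SE 0.08, adjusted p = 0.18) against Trauma. Rps27l, a p53 target beside Rps27, was at 17.6, 18.6, 15.8 and 17.4 FPKM in Control, 18.3, 21.7, 18.0 and 17.0 in Trauma and 21.2, 21.0, 20.6 and 17.6 in Trauma+TGF-β1, with a log2 fold change of 0.10 (SE 0.08, adjusted p = 0.46). The log2 ratio of Rps27l to Rps27 differed by −0.30 between Trauma+TGF-β1 and Trauma (exact permutation p = 0.26, adjusted p = 0.43) and that of Rpl7l1 to Rpl7 by −0.20 (exact permutation p = 0.11, adjusted p = 0.32).

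Rps27rt, a near copy of Rps27 with 89.5% of its 100-base sequences shared, was at 216, 116, 122 and 106 FPKM in Control, 126, 167, 141 and 188 in Trauma and 92.3, 191, 88.9 and 129 in Trauma+TGF-β1, with a log2 fold change of −0.37 (SE 0.26, adjusted p = 0.39) against Trauma. Its libraries varied within each group, and so did the division of reads between the copies. In the 4 Trauma+TGF-β1 libraries Rps27 had 1346, 678, 1258 and 854 reads, and Rps27rt had 526, 1116, 538 and 770. Together with the pseudogene Gm17241 they came to 1877, 1797, 1799 and 1629 reads, so in this group the libraries low for Rps27 were high for Rps27rt. The same sums ran from 1333 to 2036 reads in Control and from 1506 to 2058 in Trauma. Control library 1 was the highest Control library for both Rps27 (789 reads) and Rps27rt (1241 reads). Rps27a, which encodes ubiquitin fused to a ribosomal protein, was at 75.9, 25.1, 27.3 and 22.6 FPKM in Control, 52.2, 72.1, 22.2 and 21.2 in Trauma and 21.5, 18.7, 20.8 and 20.2 in Trauma+TGF-β1. Control 1, Trauma 1 and Trauma 2 had 1694 to 2482 reads and the other 9 had 575 to 847, while the 4 pseudogenes that share its sequence had 135 to 283 in all. It had a log2 fold change of −0.84 (SE 0.43, adjusted p = 0.21) against Trauma, the widest error among the members.

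An alternative chosen after seeing the data added the reads of pseudogenes that share sequence to each member. With it, 37 of 82 members fell from Trauma to Trauma+TGF-β1 and 0 rose, with a median of −0.20. Of all 14794 genes tested in it, 1169 fell and 671 rose. Of the 34, 33 stayed past the threshold, and Rpl5 did not. Rpl7a, a large subunit protein with 37 sharing genes, went from −0.34 (adjusted p = 0.40) to −0.59 (adjusted p = 0.013). Its reads with those of the sharing genes were 1762 to 2528 in Trauma and 957 to 1347 after TGF-β1, without overlap, whereas its own reads overlapped. For Rpl21 the fold change went from −0.12 to −0.37 (adjusted p = 0.010), and against Control it turned from 0.21 to −0.26 (adjusted p = 0.024). Rpl13a and Rpl30 also passed, and Rps10, whose reads lay mostly on Rps10-ps2, stayed unresolved at 0.08 (adjusted p = 0.67). Rpl17 turned from 0.28 to −0.13 (adjusted p = 0.19) and did not pass in either fit.

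Other genes of the translation machinery were counted for comparison, beside the 7.72% of all genes tested that fell and the 4.41% that rose from Trauma to Trauma+TGF-β1. Of 76 tested proteins of the mitochondrial ribosome, encoded in the nucleus, 18 fell (23.7%) and 1 (Mrps18b) rose (1.32%), with a median of −0.14. The largest drop was that of Mrpl14, from 17.1 to 10.1 FPKM (log2 fold change −0.77, SE 0.14, adjusted p = 0.0096). Against Control 13 fell (17.1%, beside 10.4% of all genes) and 1 (Mrpl44) rose (6.16% of all genes). Of 22 further genes whose mRNAs are of the TOP type or encode translation factors, 5 fell (22.7%) and 0 rose, namely the elongation factors Eef1d and Eef2, the initiation factor subunit Eif3h, the RNA-binding protein Hnrnpa1 and the host RNA Snhg8, and the median of the 22 was −0.05. Eef2 went from 595.7 to 535.0 FPKM (log2 fold change −0.16, adjusted p = 0.031). Of 13 genes that control the translation of these mRNAs, 2 fell (15.4%) and 1 rose (7.69%). Eif4ebp1, an mTOR target that blocks initiation, fell (−0.39, adjusted p = 0.021), as did the kinase Akt1 (−0.19, adjusted p = 0.030), and the S6 kinase Rps6kb1 rose (0.21, adjusted p = 0.040). Larp1, which binds TOP mRNAs, was the 1 of these 13 that fell from Control to Trauma, where 2.7% of all genes fell, by 0.17 on the log2 scale (adjusted p = 0.030).

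Of 14 tested genes of ribosomal RNA synthesis, the RNA polymerase I factor Ubtf (−0.30, adjusted p = 0.013) and the polymerase subunit Polr1d (−0.25, adjusted p = 0.031) fell from Trauma to Trauma+TGF-β1 and 0 rose. Of 46 ribosome assembly genes, 5 fell (10.9%, beside 7.72% of all genes) and 4 rose (8.70%, beside 4.41%), with a median of −0.03. Those that fell were Nhp2, Nop10, Pes1, Rrp1 and Eif6, and those that rose Nop58, Wdr12, Ltv1 and Gnl3. Of 7 ribosome rescue genes, Edf1, which senses collided ribosomes, fell (−0.72, adjusted p = 0.0084) and the ubiquitin ligase Ltn1 rose (0.26, adjusted p = 0.017). Of 4 cytosolic ribosomal genes under other names, 0 passed in any of the 3 comparisons, and their log2 fold changes from Trauma to Trauma+TGF-β1 ran from −0.63 to 0.10, with 3 below 0. Among them Rpsa went from 177.9 in Trauma to 190.7 FPKM with TGF-β1 (adjusted p = 0.27), Fau from 168.7 to 149.2 (adjusted p = 0.083) and Rack1 from 57.7 to 56.4 (adjusted p = 0.63).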

How the data were processed

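The authors aligned reads with HISAT2 2.0.5 to mm10, counted them per gene and deposited FPKM values with the gene length in bases (other), and coordinates of all 85 members matched GENCODE vM21. Reads were recovered by dividing FPKM times length by the step of each library, which gave whole numbers (within 0.01 of a read, or a relative 1e-05) for 100% of genes. Median-of-ratios factors were 1.01 in all libraries, so the deposited FPKM were already on that scale, and the factors changed no count of members. Log2(FPKM + 0.1) of 14993 genes with a mean of at least 0.5 FPKM was compared with limma 3.58.1 in R 4.3.3 (eBayes with a trend, 1 fit of 12 libraries, no block), with Benjamini-Hochberg adjustment over all genes tested and a threshold of 0.05, at any fold change. The fit was tested on simulated data. Paralogue ratios had exact permutation tests. Promoter sequences came from RefSeq (GRCm38.p6).

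Members and gene lists were chosen with earlier results of these data known. Genes named are the 5 with the largest change per direction, subunit and comparison among those past the threshold (if the higher group averaged 1 FPKM or more), the 3 highest per subunit, paralogues and those nearest the threshold, and up to 4 called genes of each other list. Rps27a, Rpl7a, Rps10, Rpl21 and all other genes named were chosen after their values were seen. Multi-copy counting rules are not given in the sources used here. The methods speak of 6 samples, and 12 libraries were analysed. The authors' count test was not run. A few genes are counted in the totals and not reported here by name. Alternatives were other pseudocounts, filters, scalings and variance models, corrections for length and GC content (span 0.3), the replicate block, voom, single libraries left out and, added later, pseudogene reads.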

Additional observations from a re-analysis of the deposited data

Results flagged for a closer look

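Dixon's test at the 95% level was applied to 90 groups of 4 values and marked 6 (6.67%), where chance gives about 5%. In 4 of these, Control library 1 stood apart from the other Control libraries. Rpl22l1 was at 10.9 FPKM there, Rps27rt at 215.7 FPKM, the summed FPKM of the large over that of the small subunit at 1.54, and the log2 ratio of Rpl22l1 to Rpl22 at −2.25. This library also had 2.97% of its reads on mitochondrial genes, the highest of the 4 Control libraries. Without it, 37 members fell from Trauma to Trauma+TGF-β1 (1560 of 15004 genes did). Against Control 28 members fell and 3 rose, beside 2063 lower and 1339 higher of all genes. Rplp0 was at 370.6 FPKM in Trauma library 2, above the other Trauma libraries, and Rps27l was at 17.6 FPKM in Trauma+TGF-β1 library 4, below the others of its group.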

How the results depend on the processing

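No member fell from Control to Trauma in any of the 29 alternatives. Members that rose numbered 0 with no filter, the 2-group fit, no trend or the replicate block. They numbered 2 with a filter at 1 FPKM, robust eBayes, GC correction or pseudogene reads added. Quantile normalization or protein-coding genes alone gave 4, and voom gave 6. Over all genes 311 to 623 rose in these fits. From Trauma to Trauma+TGF-β1, 20 members fell with length correction and the block, where 512 of all 14993 genes fell. In quantile normalization and in the 2-group fit 1 member rose, beside 1125 and 876 of all genes. The median was −0.12 with quantile normalization and −0.11 with length correction, with or without the block. Against Control, 13 members fell with quantile normalization. Those that rose numbered 3 with quantile normalization, 1 with length correction and the block, 1 with GC correction and 2 with voom. Over all genes 918 fell with quantile normalization, and 828 to 1185 rose in these fits. The median of the members was −0.028 with quantile normalization and −0.090 with length correction, with or without the block. Rps15 turned from −0.23 to 0.028 against Control with GC correction, with or without the block. Without Rplp0, the member with the most reads, the median share of reads was 1.26% in Control and 1.15% in Trauma+TGF-β1. With each library left out in turn, 0 to 2 members rose from Control to Trauma. From Trauma to Trauma+TGF-β1 22 to 37 fell and 0 to 1 rose, and 16 to 28 fell and 0 to 3 rose against Control. Over all genes the counts in the same order were 295 to 470, 490 to 1560, 163 to 987, 922 to 2063 and 537 to 1339. The log2 ratio differences from Control to Trauma then ran from −0.068 to 0.074 for Rpl22l1 to Rpl22, −0.055 to 0.063 for Rpl7l1 to Rpl7 and −0.0073 to 0.118 for Rps27l to Rps27. Whether the replicate numbers pair the libraries is not stated. Correlations ran from −0.01 to 0.08 for same-numbered libraries and from −0.09 to 0.07 for unlike-numbered ones, and such small values cannot settle it. With the replicate block 30 members fell from Trauma to Trauma+TGF-β1 (971 of all genes did) and 21 against Control (1430 of all genes). The causes of these shifts were not tested. Low read counts limit Rps10, Rpl24 and the untested paralogues. For Rps10 and Rpl24 more reads in each library lay on the genes that share their sequence than on the member itself.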
